A study of Mus musculus with 9 samples.

Results

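The genes described here encode zinc finger proteins whose symbol is Zfp followed by a number, in CD4+ T cells of the spleen of C57BL/6 mice. Members were the protein-coding GENCODE M21 genes of that name, Zfp36 left out, with a total of at least 1000 estimated counts over the 9 libraries. This gave 99 members of 364 genes of that name, out of 45321 annotated genes. The members were chosen by this total of estimated counts, which takes in every group, so a gene can reach it through the group where it is high. Without the group of its highest mean, 16 members had fewer counts per library than the minimum asks for, of which 14 were highest in an unstimulated group and 2 in a stimulated one. Zfp948 is the clearest case, with 612 of its 2955 counts outside the stimulated compound 10 libraries. Totals of 1018 (Zfp512), 1023 (Zfp488) and 1027 (Zfp329) lay just above the minimum, and totals of 980 (Zfp143), 972 (Zfp384) and 963 (Zfp141) just below it. The genes were proposed as carriers of short-lived mRNA, a property that no library here measured, so they are called Zfp genes below.

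The cells were purified untouched, that is without antibody bound to the CD4+ cells, and all of them spent 1 h with the vehicle DMSO or with compound 10, an inhibitor of the NFAT:AP-1 complex according to the design text. Compound 10 was used at 12.5 µM, and stimulation was 2 h with 10 nM PMA, an activator of protein kinase C, and 1 µM ionomycin, a calcium ionophore. The groups were stimulated compound 10 cells (3 libraries), stimulated DMSO cells (2), unstimulated compound 10 cells (2) and unstimulated DMSO cells (2). PMA and ionomycin act inside the cell and bypass the T cell receptor. Titles number the libraries, and nothing says that the numbers stand for different mice or cultures. The p-values below therefore rest on the spread among these 9 libraries alone, part of which may be technical.

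Most zinc finger proteins of this kind carry a row of classical zinc fingers, each of which contacts a few bases of DNA. Many also carry a KRAB domain, which binds Trim28 and through it brings in the histone methyltransferase Setdb1 and histone deacetylases, and such proteins are best known for silencing transposable elements. Messages of this family are low in abundance, and surveys of mRNA turnover in mammalian cells place many of them among the faster decaying ones. AUUUA motifs in the 3′ untranslated region are one feature of unstable messages, since they bind decay factors such as those of the Zfp36 family.

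Libraries held 10669821 to 21852830 estimated counts, and the members took 0.182% to 0.294% of them. Ribosomal RNA took 9.66%, 1.78% and 7.48% of counts in stimulated compound 10 libraries and 3.57% and 13.8% in stimulated DMSO libraries. It took 6.67% and 3.11% in unstimulated compound 10 libraries and 4.72% and 26.3% in unstimulated DMSO libraries. The 9 markers of CD4 T cells were all tested, and their summed level was 1532 to 1829 TPM in stimulated compound 10 cells and 1381 to 1832 TPM in stimulated DMSO cells. It was 1208 to 1227 TPM in unstimulated compound 10 cells and 637 to 847 TPM in unstimulated DMSO cells. Markers of B cells summed to at most 54.8 TPM, of myeloid cells to 19.5 TPM, of NK cells to 18.3 TPM, of red cells and platelets to 30.7 TPM and of CD8 T cells to 5.71 TPM in any library, and no marker was at 0 in every library.

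Levels of the Zfp genes spanned a wide range. Mean levels over the 4 groups ran from 1.35 TPM for Zfp292 to 37.4 TPM for Zfp207, with a median of 5.74 TPM over the members. After Zfp207, the members with the highest mean level were Zfp703 (32.3 TPM), Zfp622 (29.1 TPM), Zfp330 (28.8 TPM), Zfp706 (25.3 TPM), Zfp110 (22.4 TPM), Zfp68 (22.2 TPM) and Zfp131 (21.3 TPM). Of these 8, Zfp110 and Zfp68 carry a KRAB domain by the pattern described below. The median member stood at 12.2 to 13.4 CPM (counts scaled to a common library size) in the 5 stimulated libraries, and at 16.0 to 17.5 CPM in the 4 unstimulated libraries, without overlap. The summed level of all members overlapped, at 1982 to 2256 CPM with stimulation and 2058 to 2305 CPM without it. The mean was highest in unstimulated DMSO cells for 41 members, in unstimulated compound 10 cells for 29, in stimulated DMSO cells for 18 and in stimulated compound 10 cells for 11. No such count was made over all genes, and the choice of members by total count depends in part on the highest group. The counts therefore do not set the members apart from other genes.

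**Figure D1:**
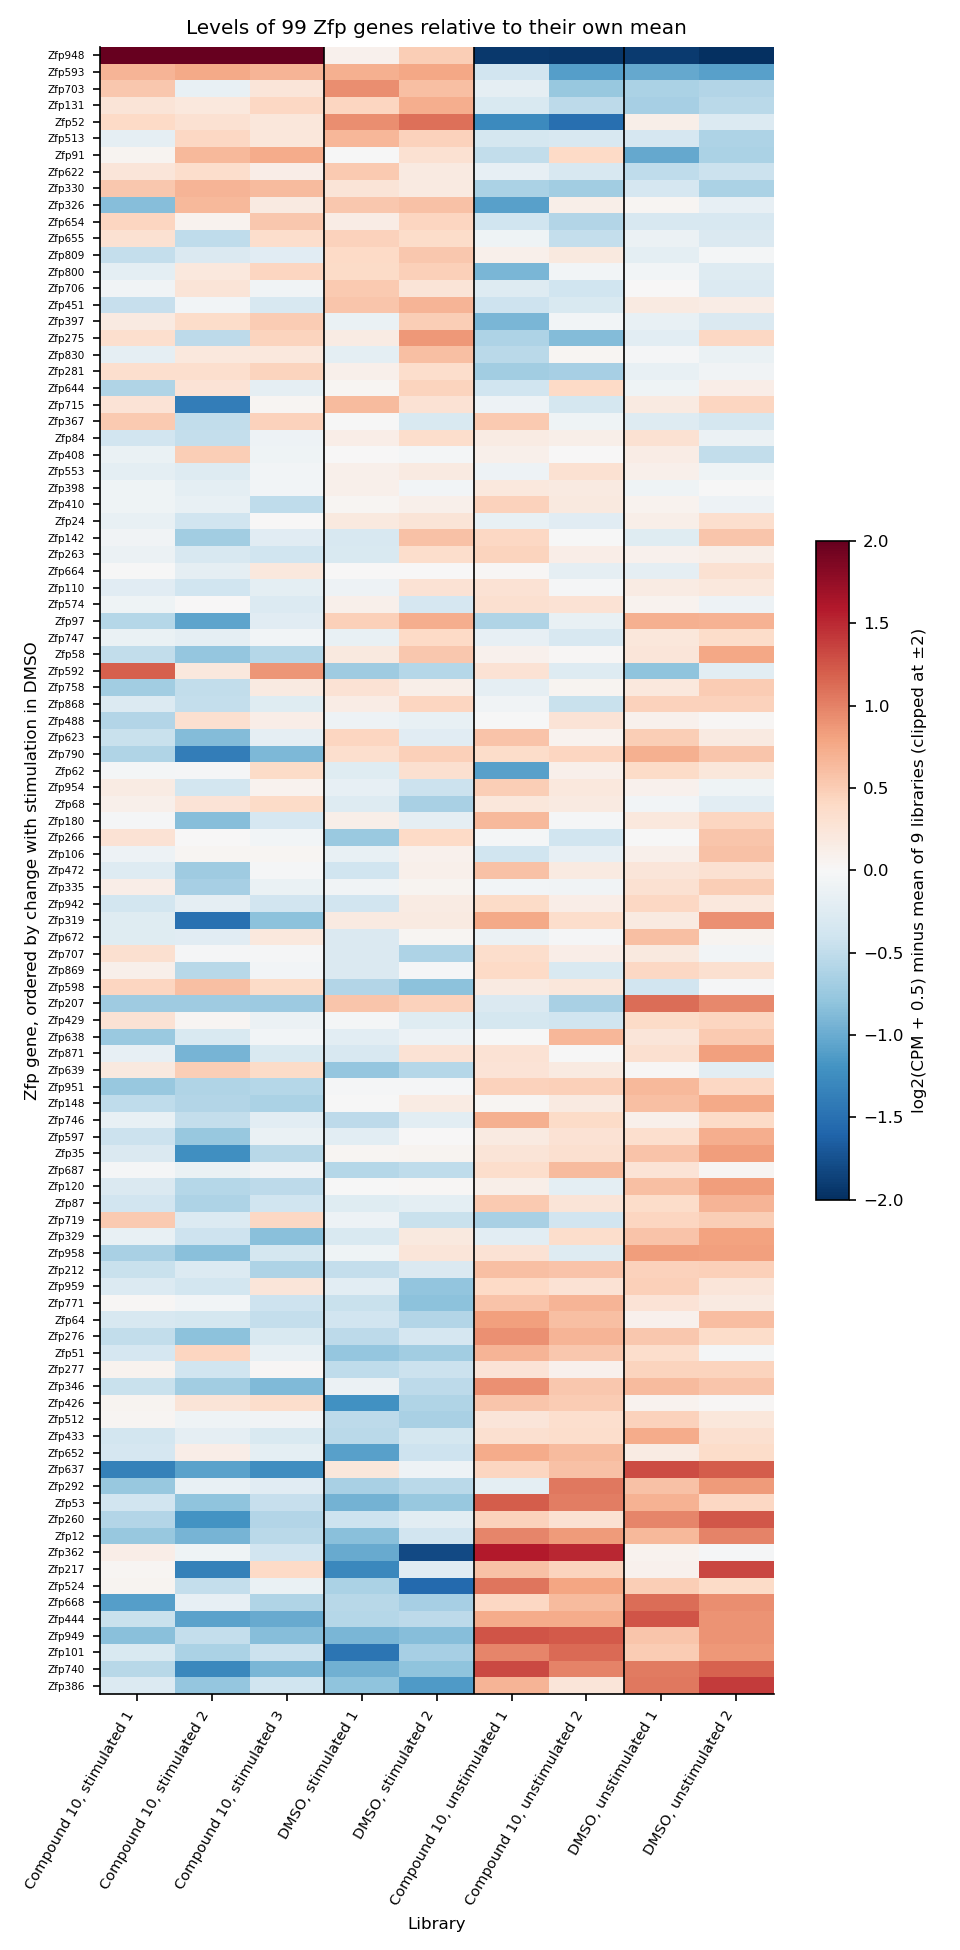
Levels of the 99 Zfp genes (rows, ordered by their change with stimulation in DMSO) in the 9 libraries (columns, stimulated on the left), as log2(CPM + 0.5) minus the gene's mean over the libraries, with colours clipped at 2 in either direction. The change with stimulation in DMSO was negative for 71 of 99 rows, and Zfp948 at the top stands furthest above its mean in the 3 stimulated compound 10 libraries.

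Stimulation lowered far more Zfp genes than it raised. In DMSO cells 11 members were higher and 32 lower with PMA and ionomycin (edgeR quasi-likelihood test, Benjamini-Hochberg adjusted p under 0.05 over 14011 genes), where 14.4% of all genes tested were higher and 13.8% lower. The lower share, 32.3% of members, was thus above that of all genes, and above the 17.6% of the 6845 protein-coding genes that reached the same total count. The median log2 fold change was -0.41 over the members, -0.05 over all genes and 0.04 over those protein-coding genes. Stimulated and unstimulated DMSO libraries did not overlap for 18 members that were higher (29.3% of all genes) and 56 that were lower (34.1% of all genes). Among the 83 members that reached the minimum per library also without their highest group, a subset formed after the data were seen, 10 were higher and 23 lower (27.7%), against 16.9% lower of the 6451 protein-coding genes chosen the same way. In bulk RNA, fewer cells that express a gene and less of its RNA per cell cannot be told apart.

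The fall was also there in the other libraries. With compound 10 present, stimulation raised 7 members (11.0% of all genes) and lowered 28 (10.8%), with a median log2 fold change of -0.39 over the members and 0.00 over all genes. Libraries did not overlap for 17 members that were higher (24.2% of all genes) and 53 that were lower (25.4%). Of the 83 members described above, 6 were higher and 19 lower (22.9%), against 15.4% lower of the protein-coding genes chosen the same way. The DMSO and the compound 10 comparison share no library. They had 23 lower members in common, which is 82.1% of the compound 10 list and 71.9% of the DMSO list, and 6 higher members. The sign of the change was the same for 80 of 99 members, and no member was called in opposite directions. These shared calls and signs were not counted over all genes, so they do not set the members apart from other genes.

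The number of calls depended on single libraries. In DMSO cells 18 members were lower without unstimulated library 1, 20 without unstimulated library 2, 20 without stimulated library 1 and 19 without stimulated library 2. In these fits 18.2% to 20.2% of members were lower, against 7.28% to 8.89% of all genes. Without the rRNA-richest DMSO library of each state, 12 members (12.1%) were lower, against 3.71% of all genes, and 5 were higher. Higher members numbered 6 without unstimulated DMSO library 2 and 7 without stimulated DMSO library 1, and under compound 10 they numbered 12 without stimulated compound 10 library 2. CD4 T cell markers moved with stimulation as well, 6 of 9 being higher and 0 lower in DMSO cells, and their part in these results was not tested.

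**Figure D2:**
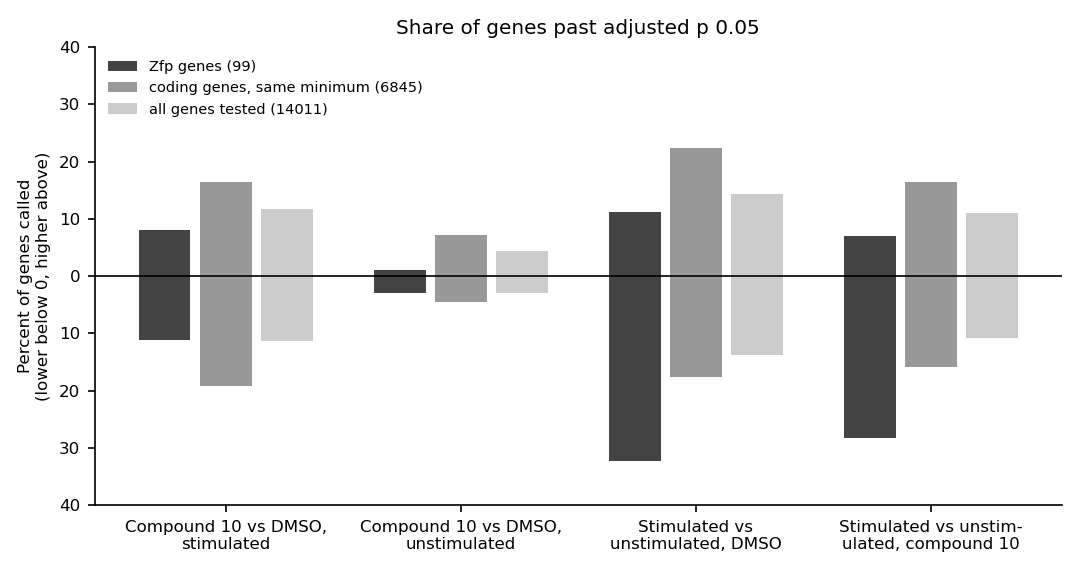
Percent of genes called higher (bars above 0) and lower (bars below 0) in each comparison, for the 99 Zfp genes, for the 6845 protein-coding genes with the same minimum total and for all 14011 genes tested. The bars that stand out are the lower Zfp genes with stimulation, 28.3% under compound 10 and 32.3% in DMSO cells.

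Zfp948 and Zfp593 rose furthest with stimulation. Zfp948, a KRAB gene with 15 fingers, stood at 11.2 and 15.0 CPM in stimulated DMSO cells, against 2.45 and 2.06 CPM in unstimulated DMSO cells. Its log2 fold change was 2.54 (SE 0.25; adjusted p = 1.76e-05). Zfp593, whose human counterpart takes part in the maturation of the large ribosomal subunit, stood at 25.6 and 26.9 CPM in stimulated DMSO cells, against 7.35 and 7.03 CPM in unstimulated DMSO cells. Neither gene had overlapping libraries, and Zfp593 changed by 1.46 (SE 0.23; adjusted p = 0.000731) under compound 10 and by 1.87 (SE 0.25; adjusted p = 0.000174) in DMSO cells.

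Zfp622, another factor of the large ribosomal subunit, rose as well. It was at 123 and 97.0 CPM in stimulated DMSO cells, against 60.1 and 63.7 CPM in unstimulated DMSO cells (log2 fold change 0.83, SE 0.18; adjusted p = 0.00514), with no overlap. Under compound 10 it changed by 0.48 (SE 0.17; adjusted p = 0.0601). Zfp330, a nucleolar protein, changed by 1.30 (SE 0.17; adjusted p = 0.000177) under compound 10 and by 0.70 (SE 0.17; adjusted p = 0.00995) in DMSO cells. The DMSO call of Zfp330 ended without unstimulated library 2 (adjusted p = 0.108) or stimulated library 1 (adjusted p = 0.0511).

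Zfp703, a transcriptional corepressor in which the finger pattern found 0 fingers, was at 200 and 158 CPM in stimulated DMSO cells, against 67.3 and 69.6 CPM in unstimulated DMSO cells (1.39, SE 0.26; adjusted p = 0.00176). Zfp131, a BTB zinc finger gene, was at 89.8 and 111 CPM, against 42.0 and 45.6 CPM in unstimulated DMSO cells (1.20, SE 0.18; adjusted p = 0.000496). The groups of both genes lay apart. Under compound 10, Zfp131 rose by 0.71 (SE 0.17; adjusted p = 0.00995), a call that ended without unstimulated compound 10 library 2 (adjusted p = 0.123), and Zfp703 changed by 0.68 (SE 0.24; adjusted p = 0.0573). The remaining higher members in DMSO cells were Zfp52 (1.12), Zfp513 (1.09), Zfp91, a ubiquitin ligase of the non-canonical NF-kB pathway (0.99), Zfp654 (0.63) and Zfp809 (0.61), the last described with compound 10. Zfp654 lost its DMSO call without any 1 library other than stimulated compound 10 library 2 (adjusted p = 0.0574 to 0.222). The Zfp513 call ended without unstimulated DMSO library 2 (adjusted p = 0.0760), and that of Zfp91 without any 1 of the 4 DMSO libraries (adjusted p = 0.0693 to 0.208).

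Among members whose mean log2 CPM reached 3 and with groups that did not overlap, those that fell furthest in DMSO cells were Zfp386, Zfp740, Zfp101, Zfp949, Zfp668, Zfp362, Zfp12 and Zfp260. Zfp444 and Zfp524 lay below that level and fell by 1.75 (SE 0.29) and 1.59 (SE 0.34), the Zfp524 call ending without the rRNA-richest DMSO library of each state (adjusted p = 0.0907). Zfp386, a KRAB gene, was at 4.96 and 3.84 CPM in stimulated DMSO cells, against 19.2 and 24.5 CPM in unstimulated DMSO cells (-2.31, SE 0.28; adjusted p = 9.09e-05). Zfp740, which has no KRAB pattern, was at 5.85 and 6.59 CPM in stimulated DMSO cells, against 24.8 and 27.6 CPM in unstimulated DMSO cells (-2.07, SE 0.27; adjusted p = 0.000135). Stimulated libraries lay below all unstimulated ones in each case. Of the genes listed here, Zfp444, Zfp524, Zfp949, Zfp668 and Zfp362 reached the minimum per library only with an unstimulated group. That group was unstimulated DMSO for Zfp444 and Zfp668 and unstimulated compound 10 for the others. The choice of members can favour a fall in the comparison that holds it.

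Under compound 10 Zfp740 fell about as far. It stood at 7.93, 4.56 and 6.02 CPM in stimulated compound 10 cells, against 30.3 and 24.0 CPM in unstimulated compound 10 cells (-2.14, SE 0.24; adjusted p = 6.04e-05). Zfp386 stood at 7.37, 5.08 and 6.72 CPM, against 14.7 and 10.7 CPM in unstimulated compound 10 cells (-0.99, SE 0.24; adjusted p = 0.0120). That Zfp386 call ended without unstimulated compound 10 library 1 (adjusted p = 0.156). The difference between its changes under compound 10 and DMSO was 1.31 (SE 0.37; adjusted p = 0.119) and did not pass the threshold.

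Zfp949, with 11 fingers and a KRAB domain, was at 3.24 and 3.42 CPM in stimulated DMSO cells, against 9.87 and 12.6 CPM in unstimulated DMSO cells. Its log2 fold change with stimulation was -2.08 under compound 10 (SE 0.23; adjusted p = 6.66e-05) and -1.75 in DMSO cells (SE 0.26; adjusted p = 0.000418). The KRAB gene Zfp101 changed by -1.59 (SE 0.26) under compound 10 and by -1.83 (SE 0.30) in DMSO cells, and the KRAB gene Zfp12 by -1.73 (SE 0.23) under compound 10 and -1.49 (SE 0.25) in DMSO cells, the DMSO call of Zfp12 ending on protein-coding transcripts alone (-1.39, adjusted p = 0.105). Zfp668 changed by -1.16 under compound 10 (SE 0.27; adjusted p = 0.0826 without unstimulated compound 10 library 2) and by -1.74 in DMSO cells (SE 0.31). Zfp260, a cardiac promoter factor, changed by -1.20 (SE 0.23) under compound 10 and by -1.46 (SE 0.25) in DMSO cells. Estimated counts of Zfp101 were fractional (more than 0.01 from a whole number) in all 9 libraries and those of Zfp949 in 8. Part of their reads was thus shared with transcripts of other genes or with transcripts that had no match in GENCODE M21. Their levels are therefore uncertain.

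**Figure D3:**
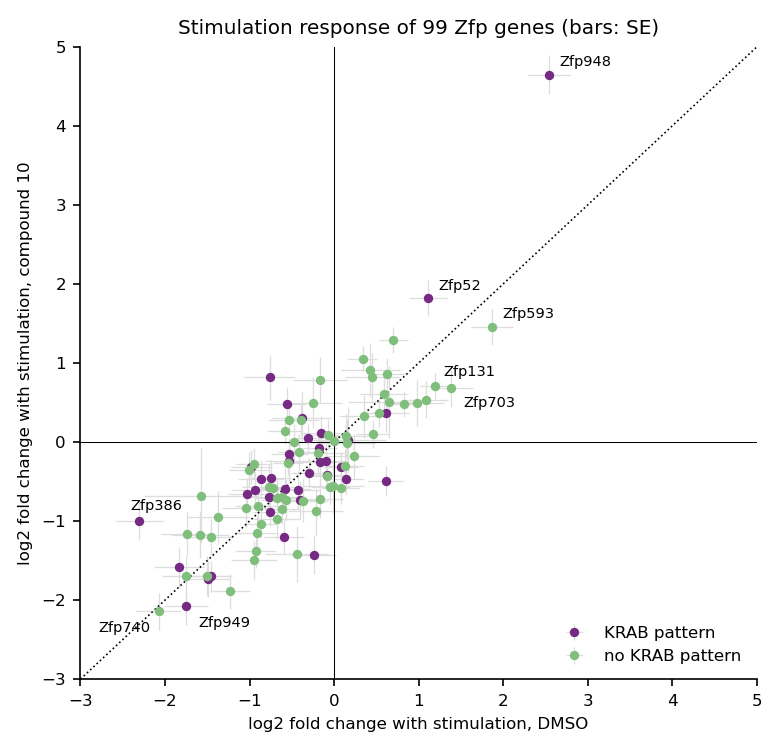
Log2 fold change with stimulation in DMSO cells (x axis) and under compound 10 (y axis) for the 99 Zfp genes, with SE as bars, the line of equal change dotted, and KRAB genes in purple. Most points lie in the lower left part, and Zfp948 lies above the line, at 4.65 under compound 10 and 2.54 in DMSO.

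Other members of known function moved less. Zfp148, a factor of GC-rich promoters, fell with stimulation, with a log2 fold change of -0.70 (SE 0.17; adjusted p = 0.00999) under compound 10 and -0.61 (SE 0.18; adjusted p = 0.0243) in DMSO cells. Zfp687, a partner of the chromatin reader Zmynd8, changed by -0.58 (SE 0.18; adjusted p = 0.0323) under compound 10 and by -0.72 (SE 0.20; adjusted p = 0.0166) in DMSO cells. The DMSO call of Zfp148 ended without any 1 DMSO library (adjusted p = 0.0580 to 0.152), and its compound 10 call without unstimulated compound 10 library 2 (adjusted p = 0.101). Zfp687 lost its DMSO call without unstimulated library 1 (adjusted p = 0.115) or either stimulated library (adjusted p = 0.0770 and 0.0578), and its compound 10 call without any 1 of the 5 compound 10 libraries (adjusted p = 0.0588 to 0.279). Zfp281, which binds GC-rich promoters in pluripotent cells, rose with stimulation under compound 10 (1.06, SE 0.16; adjusted p = 0.000576). Its change in DMSO cells was 0.34 (SE 0.17; adjusted p = 0.160), and the difference of 0.72 (SE 0.23) did not pass the threshold (adjusted p = 0.160).

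Some stimulation calls also ended on another scale. With limma on log2(TPM + 1), those of Zfp622, Zfp330, Zfp513, Zfp52, Zfp91, Zfp654 and Zfp809 in DMSO cells ended (adjusted p = 0.115 to 0.544), as did those of Zfp148, Zfp687, Zfp207 and Zfp51 (adjusted p = 0.0623 to 0.137). Under compound 10, the calls of Zfp131, Zfp281, Zfp330 and Zfp687 ended with it (adjusted p = 0.0521 to 0.422). With TPM centred on the median gene, the DMSO call of Zfp668 (adjusted p = 0.0634) and the compound 10 call of Zfp260 (adjusted p = 0.122) ended.

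Several members with a textbook role passed in no comparison. Zfp335, needed for T cell maturation after the thymus, was at 19.6 and 21.5 CPM in stimulated DMSO cells, against 25.6 and 29.3 CPM in unstimulated DMSO cells (-0.42, SE 0.24; adjusted p = 0.236). It overlaps Pcif1 on the opposite strand, as Zfp687 overlaps Pi4kb, Zfp740 overlaps Csad and Zfp513 overlaps Snx17. Likewise Zfp524 overlaps Fiz1, Zfp668 overlaps Zfp646 and Zfp593 overlaps E130218I03Rik. Fiz1 had 3057 counts in total, against 1070 for Zfp524. Whether the libraries kept strand is not given in the sources used here, so reads of such pairs may not be told apart. Zfp410, the activator of Chd4, changed by 0.08 (SE 0.22), Zfp830, a splicing factor, by 0.35 (SE 0.29), Zfp110, a partner of the p75 neurotrophin receptor, by -0.08 (SE 0.20), Zfp263 by -0.04 (SE 0.23) and Zfp638, a nuclear matrix factor, by -0.57 (SE 0.29), with adjusted p of 0.170 or more. Zfp217, a partner of the corepressor CtBP, had a large error (-1.58, SE 0.67; adjusted p = 0.131). Zfp326 of the DBIRD complex, which acts on elongation, changed by 0.65 (SE 0.49; adjusted p = 0.372). In all 43 members passed in none of the 4 comparisons of groups.

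Members with and without a KRAB domain both fell more often than they rose. A pattern for the first box of the domain, run on the translated coding sequence of GENCODE M21, was found in 36 members, and in 307 of 21616 protein-coding genes with a coding sequence, 279 of which had at least 1 finger. With stimulation under compound 10, 2 of 36 KRAB members were higher and 10 lower (median log2 fold change -0.43), and 5 of the 63 others were higher and 18 lower (median -0.30). In DMSO cells 3 KRAB members were higher and 11 lower (median -0.48), and 8 of the others were higher and 21 lower (median -0.36). Over all genes 11.0% were higher and 10.8% lower under compound 10, and 14.4% and 13.8% in DMSO cells.

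Per transcript length, KRAB members summed to 214 to 232 TPM in the stimulated libraries and 269 to 402 TPM in the unstimulated ones, without overlap. In CPM the KRAB sums overlapped, at 503 to 621 in the stimulated libraries and 619 to 705 in the unstimulated ones. On the TPM scale the median gene itself had a log2 fold change with stimulation of -0.21 under compound 10 and -0.17 in DMSO cells. The other members summed to 435 to 530 TPM with stimulation and 511 to 750 TPM without it, which overlapped.

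At least 1 finger was found in 97 members, with a maximum of 32 in Zfp142 and a median of 9. Zfp703 and Zfp330 had 0. With stimulation in DMSO cells the lower calls were 12 of 29 members with up to 4 fingers, 9 of 30 with 5 to 9 fingers and 11 of 40 with 10 or more. Higher calls were 6, 3 and 2 in the same order. Over all genes 13.8% were lower and 14.4% higher. The finger classes were chosen after the values were seen, and no test was run between them.

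The members also differed from other genes in their letters. The coding sequence had a median GC content of 41.8% in KRAB members and 53.3% in the other members, against 52.6% over the protein-coding genes tested. The 3′ untranslated region held a median of 1.71 AUUUA per kb in the 93 members with a value. It held 1.27 per kb over the protein-coding genes tested and 1.39 per kb over those at the same minimum. Quartiles overlapped widely, at 0.59 to 2.82 in members and 0 to 2.71 at the same minimum. Transcripts had a median GC content of 45.8% in members and 49.8% at the same minimum, and AUUUA was not compared at equal GC content. The median length of the 3′ untranslated region was 938 bases in members and 924 bases over protein-coding genes. These are properties of the annotation. Half-life was not measured, and no link between these features and the changes was tested.

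Zfp genes too low to be members also had more lower than higher calls with stimulation. Of 265 such genes 190 were tested, of which 4 were higher and 37 lower with stimulation under compound 10, with a median log2 fold change of -0.66. In DMSO cells there were 3 higher and 51 lower, with a median of -0.77. The lower share was 19.5% under compound 10 and 26.8% in DMSO cells, against 10.8% and 13.8% of all genes. The higher share was 2.11% and 1.58%, against 11.0% and 14.4% of all genes. A low gene can pass the filter on low counts through the group where it is high. The choice of genes tested can therefore favour a fall, as for the members. All genes tested were not matched to these genes in level, and the median SE in DMSO cells was 0.48 against 0.33. Zbtb genes, whose fingers follow a BTB domain, had 3 higher and 1 lower of 16 in DMSO cells (median 0.08). The 7 Zkscan and Zscan genes, which carry a SCAN domain, had 0 higher and 2 lower (median -0.42), and all 7 changes were negative.

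Other lists give the setting. Beside their counts in DMSO cells stand 14.4% higher and 13.8% lower over all genes. Of 32 textbook short-lived transcripts, immediate-early and feedback genes for the most part, 23 were higher and 2 lower with stimulation in DMSO cells (median 1.33), led by Egr2 (6.03, SE 0.24), Myc (6.70, SE 0.31) and Egr3 (6.27, SE 0.36). Of 25 textbook long-lived transcripts 11 were higher and 0 lower (median 0.66), among them Ldha (1.64, SE 0.22). Both lists thus had positive medians. The short-lived list holds mostly immediate-early and feedback genes, so its rise cannot tell how short-lived messages in general respond. No contrast with the Zfp genes is drawn from it. Of 27 deadenylation and decay genes 5 were higher and 5 lower (median -0.08), with Zfp36l1, which binds AU-rich elements, at 4.18 (SE 0.30).

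Of 25 genes for the corepressor partners of KRAB proteins, 4 were higher and 1 lower with stimulation under compound 10 (median log2 fold change 0.08). In DMSO cells 6 were higher and 3 lower (median 0.17). Over all genes 11.0% were higher and 10.8% lower under compound 10, and 14.4% and 13.8% in DMSO cells. In DMSO cells Rbbp7, Hdac1 and Mta2, subunits of deacetylase complexes, rose by 1.51 (SE 0.24), 1.24 (SE 0.21) and 0.92 (SE 0.18). Setdb1 fell by 1.11 (SE 0.32; adjusted p = 0.0208), and Trim28 itself changed by 0.21 (SE 0.26; adjusted p = 0.611).

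A group of 6 KRAB members lies within chr17:21450374-22377281 of GRCm38, with gaps of at most 500000 bases, a distance chosen after the values were seen. In order they are Zfp51, Zfp53, Zfp52, Zfp948, Zfp942 and Zfp758. With stimulation in DMSO cells the neighbours Zfp52 and Zfp948 rose, Zfp51 and Zfp53 fell, and Zfp942 and Zfp758 passed in no comparison. Zfp53 was at 8.46 and 9.77 CPM in stimulated DMSO cells, against 27.5 and 22.5 CPM in unstimulated DMSO cells (-1.46, SE 0.22; adjusted p = 0.000476), with no overlap. Under compound 10 it changed by -1.70 (SE 0.20; adjusted p = 8.47e-05).

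Zfp51 was at 7.52 and 7.97 CPM in stimulated DMSO cells, against 16.9 and 12.8 CPM in unstimulated DMSO cells (-0.94, SE 0.28; adjusted p = 0.0235). Under compound 10 it changed by -0.61 (SE 0.24; adjusted p = 0.0954). Its DMSO call ended without unstimulated library 1 (adjusted p = 0.157), stimulated library 1 (adjusted p = 0.103) or stimulated library 2 (adjusted p = 0.0826). Counts of Zfp51, Zfp52 and Zfp53 were fractional, by the same tolerance of 0.01, in 8 of 9 libraries, and those of Zfp948 in 1 library. Fractional counts come from reads shared with transcripts of other genes or with unmatched transcripts. Values of the first 3 are therefore uncertain.

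Zfp52 and Zfp948 lie next to each other on the plus strand and moved together with stimulation, yet apart with compound 10. Their promoters are shown for this reason, from RefSeq on GRCm38.p6, 5′ to 3′ on the plus strand, with matches to 5 motifs on either strand in capitals. Zfp948 is at chr17:21566728-21567027 and Zfp52 at chr17:21535289-21535588.
Zfp948: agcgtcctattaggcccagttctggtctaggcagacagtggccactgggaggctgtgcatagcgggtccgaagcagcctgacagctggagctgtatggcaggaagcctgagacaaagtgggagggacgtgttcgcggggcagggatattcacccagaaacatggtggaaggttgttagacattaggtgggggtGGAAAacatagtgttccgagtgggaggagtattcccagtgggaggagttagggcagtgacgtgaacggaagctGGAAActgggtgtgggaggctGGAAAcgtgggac
Zfp52: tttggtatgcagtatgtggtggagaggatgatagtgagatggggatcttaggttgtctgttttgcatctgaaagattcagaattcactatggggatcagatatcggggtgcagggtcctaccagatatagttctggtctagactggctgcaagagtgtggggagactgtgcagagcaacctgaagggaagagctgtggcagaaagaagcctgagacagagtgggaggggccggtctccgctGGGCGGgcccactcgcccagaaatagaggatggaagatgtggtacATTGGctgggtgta
The motifs were GGAAA (the NFAT core), TGANTCA (the AP-1 site), TGACGTCA (the cAMP response element), GGGCGG (the GC box) and CCAAT, searched on both strands, without overlap between them in these promoters, and chosen after the values were seen. The Zfp948 window held 3 GGAAA and no match to the other motifs, and the Zfp52 window 1 GC box and 1 CCAAT box, read as ATTGG on this strand. The longest run of bases the windows share is 13, and they share 18 words of 8 bases, where the other pairs of promoters printed here share 2 to 4. GGAAA was found in 68.7% of the 83 members with a promoter in the table and in 64.4% of 27025 genes, TGANTCA in 7.23% and 8.97%, TGACGTCA in 6.02% and 2.03%, GGGCGG in 65.1% and 38.2%, and CCAAT in 51.8% and 41.1%. The median GC content of the windows was 58.3% for members and 52.7% for all genes. The 27025 genes were not chosen by count as the members were. These figures therefore do not compare the members with other genes at the same minimum. A match is a description of letters and not a binding site.

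Compound 10 raised Zfp948 further in stimulated cells. The gene stood at 54.6, 56.3 and 69.7 CPM in stimulated compound 10 cells, against 11.2 and 15.0 CPM in stimulated DMSO cells, and every compound 10 library was above every DMSO library. The log2 fold change was 2.20 (SE 0.21; adjusted p = 5.02e-05). In unstimulated cells it was at 2.40 and 2.38 CPM with compound 10 and 2.45 and 2.06 CPM with DMSO (0.09, SE 0.27; adjusted p = 0.890), and these libraries overlapped. Stimulation changed it by 4.65 (SE 0.25; adjusted p = 2.14e-07) under compound 10 and by 2.54 in DMSO cells.

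The difference of 2.11 between these changes (SE 0.34; adjusted p = 0.0144) was tested as an interaction. Zfp948 was the 1 member called there as higher, with 0 lower, where 0.421% of all genes were higher and 0.607% lower. Since it reached the minimum total only through the stimulated compound 10 libraries, its call says nothing about the members as a group. At an unadjusted p under 0.05 there were 15 of 99 members, 12 higher and 3 lower, where 14.6% of all genes were under it, 7.39% higher and 7.26% lower. DESeq2 called 2 members higher and 1 lower, with 0.606% of all genes higher and 0.974% lower. The Zfp948 call ended without unstimulated DMSO library 1 (adjusted p = 0.0711), unstimulated compound 10 library 1 (adjusted p = 0.0823) or 2 (adjusted p = 0.0716), or stimulated DMSO library 1 (adjusted p = 0.0545), while its log2 difference stayed between 1.92 and 2.12 in these fits. It also ended with limma on log2(TPM + 1) (1.87, adjusted p = 0.0714) and without the rRNA-richest DMSO library of each state (2.44, adjusted p = 0.0612).

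Zfp52 went the other way with compound 10. It was at 14.5, 13.5 and 12.7 CPM in stimulated compound 10 cells, against 21.1 and 23.8 CPM in stimulated DMSO cells (-0.72, SE 0.20; adjusted p = 0.0205). In unstimulated cells it was at 4.22 and 3.49 CPM with compound 10, against 11.8 and 8.90 CPM with DMSO (-1.43, SE 0.24; adjusted p = 0.00515). The compound 10 libraries were below the DMSO libraries in both states. Stimulation raised it by 1.82 (SE 0.23; adjusted p = 0.000143) under compound 10 and by 1.12 (SE 0.22; adjusted p = 0.00289) in DMSO cells.

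The compound calls of Zfp52 depended on single libraries. In stimulated cells the call ended without DMSO library 1 (adjusted p = 0.0549) or 2 (adjusted p = 0.130) or compound 10 library 3 (adjusted p = 0.0740). In unstimulated cells it ended without DMSO library 1 (adjusted p = 0.0524) or compound 10 library 2 (adjusted p = 0.0625). The stimulation call in DMSO cells ended without the rRNA-richest DMSO library of each state (adjusted p = 0.120). The gene overlaps the long noncoding gene 9330136K24Rik on the opposite strand.

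**Figure D4:**
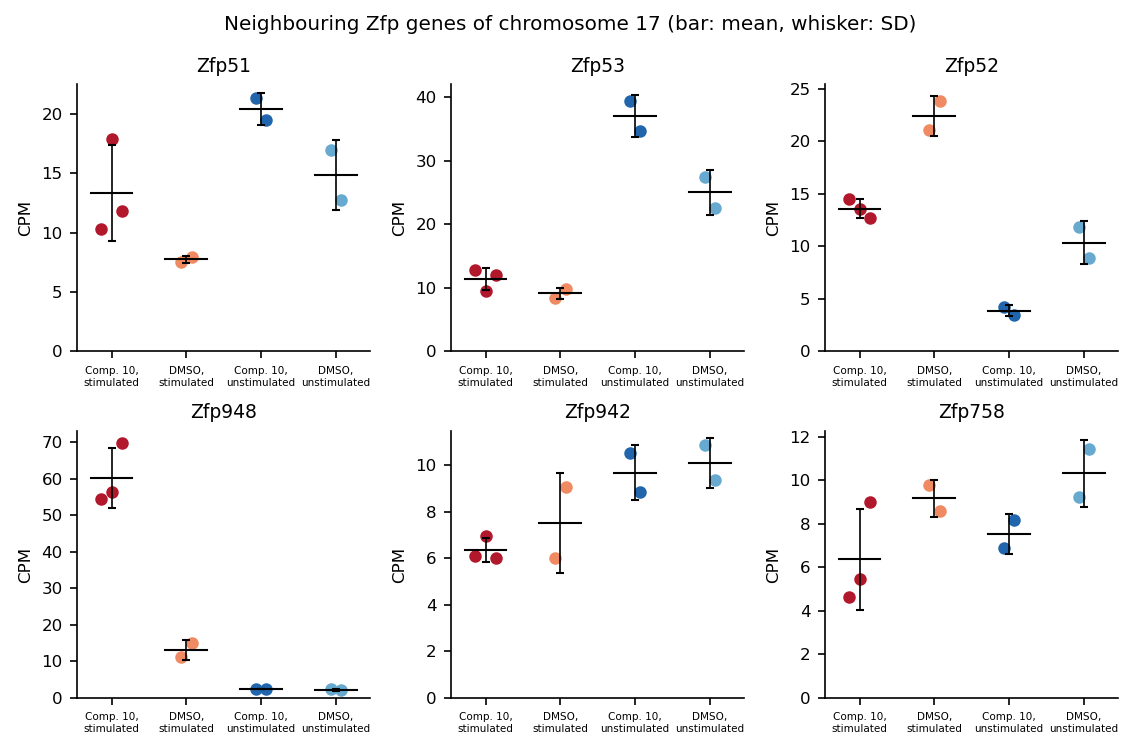
CPM of the 6 neighbouring Zfp genes of chromosome 17 in each library (points), with the group mean (line) and SD (whisker), each panel starting at 0. Zfp948 reaches 54.6 to 69.7 CPM in stimulated compound 10 cells, where Zfp52 lies below the stimulated DMSO libraries.

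Compound 10 was called for a smaller share of the Zfp genes than of protein-coding genes with the same minimum total, a difference that was not tested. The share of lower members was near that of all genes tested. The protein-coding genes also had a smaller median SE, which makes a call easier. It was 0.21 against 0.23 for the members in stimulated cells, and 0.23 against 0.25 in unstimulated cells. In stimulated cells 8 members (8.08%) were higher and 11 (11.1%) lower, against 16.4% and 19.2% of those protein-coding genes, and 11.7% and 11.4% of all genes. In unstimulated cells 1 (1.01%) was higher and 3 (3.03%) were lower, against 7.09% and 4.51% of those protein-coding genes, and 4.45% and 2.91% of all genes. Median log2 fold changes over the members were -0.14 in stimulated and -0.06 in unstimulated cells, and 0.00 and -0.01 over all genes. Single libraries moved these medians. In stimulated cells the members' median was 0.00 without stimulated DMSO library 2 or without the rRNA-richest DMSO library of each state. The median over all genes was then 0.06, so the members' median minus that of all genes was -0.06 in both fits. That difference was -0.14 with all libraries and -0.22 without stimulated DMSO library 1. In unstimulated cells the members' median was -0.13 without unstimulated compound 10 library 1 (all genes -0.03). It was -0.04 without stimulated compound 10 library 2 (all genes 0.005). Libraries did not overlap for 18 higher and 28 lower members in stimulated cells (24.2% and 23.1% of all genes) and for 25 and 34 in unstimulated cells (28.2% and 27.3%). The 4 members called in unstimulated cells were also called, in the same direction, in stimulated cells. The sign was the same in both states for 57 of 99 members, and the 2 comparisons share no library. Shared calls and signs were not counted over all genes here either.

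NK cell markers were higher with compound 10 in stimulated cells, 4 of 4 tested, with a summed level of 15.6 to 18.3 TPM against 6.05 to 7.65 TPM in stimulated DMSO cells. In unstimulated cells that sum was 11.3 to 15.0 TPM with compound 10 and 4.44 to 7.72 TPM with DMSO, and 6 of 9 CD4 markers were higher with compound 10 in each state, with 1 lower in stimulated cells. Their part in the results on Zfp genes was not tested. Without stimulated DMSO library 2, 5 members were lower in stimulated cells (7.35% of all genes), and without the rRNA-richest DMSO library of each state 4 were (6.82%). In unstimulated cells 0 members were higher without DMSO library 1 (1.00% of all genes) or 2 (1.02%) or compound 10 library 1 (0.744%). There, 1 member was lower without DMSO library 1 (0.755% of all genes) or compound 10 library 2 (0.541%), and 9 were lower without stimulated compound 10 library 2 (4.13%).

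Zfp207, the partner of Bub3 at the kinetochore, was lower with compound 10 in both states. It stood at 41.7, 41.7 and 41.6 CPM in stimulated compound 10 cells, against 101 and 94.8 CPM in stimulated DMSO cells (-1.23, SE 0.16; adjusted p = 0.000283). In unstimulated cells it stood at 56.2 and 43.6 CPM with compound 10, against 150 and 135 CPM with DMSO (-1.51, SE 0.18; adjusted p = 0.000709). The groups lay far apart in each state, and both calls held under all 17 alternatives.

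Zfp207 forms annotated as targets of nonsense-mediated decay took 20.0%, 25.8% and 27.3% of the gene's counts in stimulated compound 10 cells, against 4.15% and 14.8% in stimulated DMSO cells. They took 17.5% and 25.8% in unstimulated compound 10 cells, against 5.10% and 10.0% in unstimulated DMSO cells. The compound 10 shares were above the DMSO shares in each state, while the counts of these forms overlapped, at 104, 165 and 130 in stimulated compound 10 libraries against 80.4 and 234 in stimulated DMSO libraries, and at 152 and 204 against 106 and 209 in unstimulated ones. Coding forms had 416, 475 and 346 counts in stimulated compound 10 libraries against 1856 and 1348 in stimulated DMSO libraries, and 713 and 585 against 1977 and 1882 in unstimulated ones, without overlap in either state. These shares were looked at after the fall was seen, rest on estimated counts split between forms, and were given no test. With stimulation Zfp207 fell by 0.54 in DMSO cells (SE 0.18; adjusted p = 0.0382), a call that ended without any 1 of the 4 DMSO libraries (adjusted p = 0.0901 to 0.186) or without stimulated compound 10 library 1 (adjusted p = 0.0523) or 3 (adjusted p = 0.0619).

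Zfp97, a KRAB gene of chromosome 17 apart from the group above, was at 6.49, 4.49 and 8.38 CPM in stimulated compound 10 cells, against 13.9 and 16.5 CPM in stimulated DMSO cells (-1.25, SE 0.26; adjusted p = 0.00468). In unstimulated cells it was at 6.30 and 8.80 CPM with compound 10, against 16.5 and 16.2 CPM with DMSO (-1.11, SE 0.29; adjusted p = 0.0370). The groups lay apart in both states. The unstimulated call ended without any 1 library of that comparison (adjusted p = 0.0923 to 0.264), and the stimulated call without the rRNA-richest DMSO library of each state (adjusted p = 0.0685). Its counts were fractional by that tolerance in all 9 libraries, as were those of Zfp207. Part of the reads was thus shared with transcripts of other genes or with unmatched transcripts.

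The promoters of Zfp207 and Zfp97 are shown as the other members that were lower with compound 10 in both states. Zfp207 is at chr11:80383029-80383328 and Zfp97 at chr17:17121133-17121432, both on the plus strand of GRCm38.p6 and marked as above.
Zfp207: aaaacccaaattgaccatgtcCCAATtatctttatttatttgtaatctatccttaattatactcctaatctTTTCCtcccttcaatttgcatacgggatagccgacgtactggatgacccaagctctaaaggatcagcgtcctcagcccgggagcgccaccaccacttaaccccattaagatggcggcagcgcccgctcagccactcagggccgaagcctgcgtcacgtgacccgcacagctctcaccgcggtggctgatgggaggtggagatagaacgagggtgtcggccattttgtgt
Zfp97: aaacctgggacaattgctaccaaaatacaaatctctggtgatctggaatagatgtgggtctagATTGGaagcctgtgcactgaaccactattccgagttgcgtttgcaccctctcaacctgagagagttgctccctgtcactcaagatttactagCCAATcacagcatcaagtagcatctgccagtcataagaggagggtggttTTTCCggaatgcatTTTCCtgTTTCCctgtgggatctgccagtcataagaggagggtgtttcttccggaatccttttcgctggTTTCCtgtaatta
The Zfp207 window held 1 GGAAA, read as TTTCC on this strand, and 1 CCAAT box. The Zfp97 window held 4 GGAAA, all read as TTTCC, and 2 CCAAT boxes, 1 on each strand. Neither held TGANTCA, TGACGTCA or GGGCGG.

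Zfp362 was the member that was higher with compound 10 in both states. The gene reached the minimum only through the unstimulated compound 10 libraries, with 773 of its 1748 counts outside them. Its call in unstimulated cells therefore says nothing about the members as a group. Zfp362 is the gene meant in what follows. It was at 10.7, 9.05 and 7.33 CPM in stimulated compound 10 cells, against 4.54 and 2.40 CPM in stimulated DMSO cells (1.37, SE 0.28; adjusted p = 0.00415). In unstimulated cells it was at 30.1 and 28.3 CPM with compound 10, against 10.2 and 9.55 CPM with DMSO (1.56, SE 0.28; adjusted p = 0.00764). No libraries overlapped within a state. The unstimulated call ended without DMSO library 1 (adjusted p = 0.0589) or 2 (adjusted p = 0.0673) or compound 10 library 1 (adjusted p = 0.0672). Stimulation changed the gene by -1.69 under compound 10 (SE 0.25; adjusted p = 0.000504) and by -1.50 in DMSO cells (SE 0.30; adjusted p = 0.00263), so it was called in all 4 comparisons, as was Zfp52. Without the rRNA-richest DMSO library of each state, the compound call in stimulated cells and the stimulation call in DMSO cells ended (adjusted p = 0.0595 and 0.0642).

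**Figure D5:**
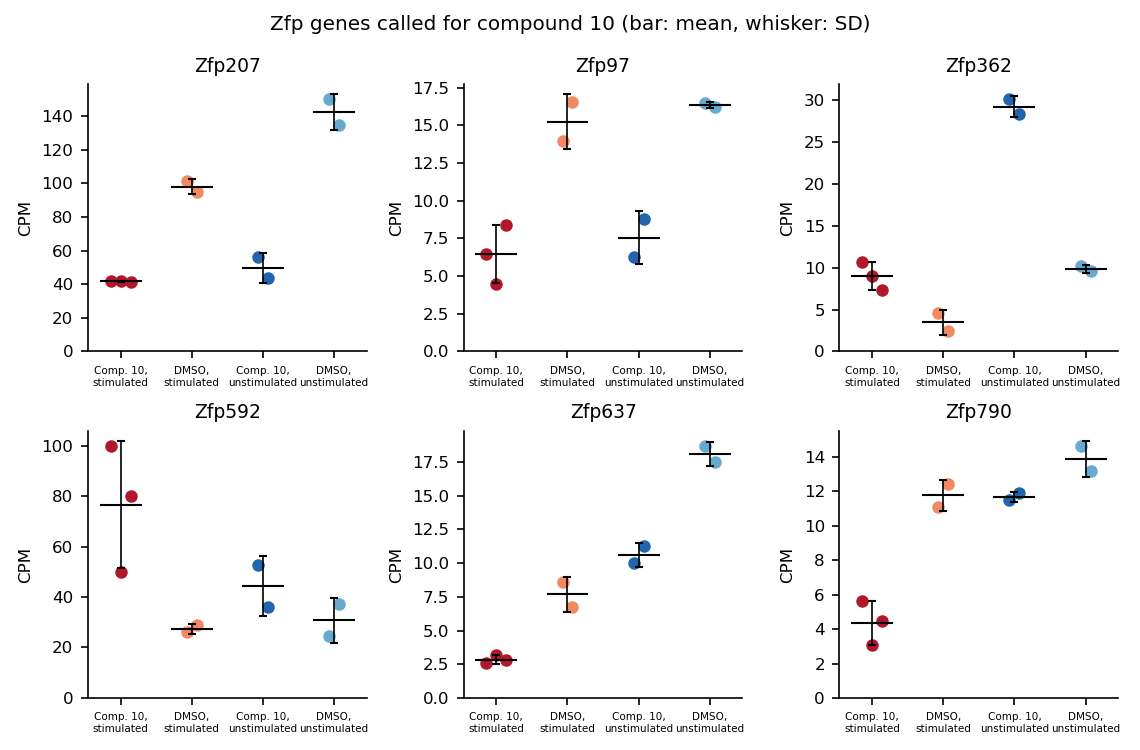
CPM of 6 Zfp genes called for compound 10, in each library (points), with the group mean (line) and SD (whisker), each panel starting at 0. Zfp207 and Zfp97 are lower and Zfp362 is higher with compound 10 in both states, and Zfp592, Zfp637 and Zfp790 were called in stimulated cells.

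Among members higher with compound 10 in stimulated cells, Zfp592, another partner of Zmynd8, was at 99.8, 49.8 and 80.0 CPM in stimulated compound 10 cells, against 26.1 and 28.8 CPM in stimulated DMSO cells (1.48, SE 0.30; adjusted p = 0.00522). Zfp598, a ubiquitin ligase that senses collided ribosomes, was at 14.8, 16.9 and 14.3 CPM, against 7.10 and 5.94 CPM in stimulated DMSO cells (1.23, SE 0.21; adjusted p = 0.00160). All compound 10 libraries were above the DMSO libraries for both genes. The Zfp592 call ended without stimulated DMSO library 1 (adjusted p = 0.0589), and that of Zfp598 held under all 17 alternatives. In unstimulated cells Zfp592 and Zfp598 changed by 0.53 (SE 0.32; adjusted p = 0.367) and 0.42 (SE 0.23; adjusted p = 0.305).

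Zfp639 was at 34.9, 43.1 and 39.6 CPM in stimulated compound 10 cells, against 17.6 and 20.3 CPM in stimulated DMSO cells (1.05, SE 0.18; adjusted p = 0.00134). The KRAB gene Zfp426 was at 12.9, 14.9 and 15.9 CPM, against 5.07 and 7.97 CPM in stimulated DMSO cells (1.16, SE 0.23; adjusted p = 0.00360). Both lay above all DMSO libraries. The KRAB genes Zfp51 and Zfp68 were higher by 0.79 (SE 0.26; adjusted p = 0.0427) and 0.70 (SE 0.18; adjusted p = 0.0128). The Zfp51 call ended without any of 6 of the 9 libraries (adjusted p = 0.0593 to 0.167), and that of Zfp68 without stimulated DMSO library 2 (adjusted p = 0.135) or stimulated compound 10 library 3 (adjusted p = 0.0508).

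Among lower members, the KRAB gene Zfp790 was at 5.61, 3.06 and 4.45 CPM in stimulated compound 10 cells, against 11.1 and 12.4 CPM in stimulated DMSO cells (-1.43, SE 0.25; adjusted p = 0.00154). Zfp637 was at 2.56, 3.19 and 2.79 CPM, against 8.62 and 6.77 CPM in stimulated DMSO cells (-1.43, SE 0.23; adjusted p = 0.000872). Neither overlapped, and both calls held under all 17 alternatives. Zfp637 reached the minimum per library only with the unstimulated DMSO libraries, so the choice of members can favour a fall with stimulation in DMSO cells. Zfp637 also fell with stimulation, with a log2 fold change of -1.89 under compound 10 (SE 0.22; adjusted p = 0.000104) and -1.23 in DMSO cells (SE 0.24; adjusted p = 0.00210), the DMSO call ending without the rRNA-richest DMSO library of each state (adjusted p = 0.0729).

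Zfp809, the KRAB protein that silences murine leukaemia proviruses together with Trim28, was at 8.65, 9.97 and 10.4 CPM in stimulated compound 10 cells, against 16.2 and 18.0 CPM in stimulated DMSO cells (-0.83, SE 0.19; adjusted p = 0.00767). Unstimulated libraries lay at 13.2 and 14.1 CPM with compound 10 and 10.6 and 11.9 CPM with DMSO (0.28, SE 0.21; adjusted p = 0.475). The stimulated groups lay apart, and the call ended without stimulated DMSO library 2 (adjusted p = 0.0591). With stimulation Zfp809 was called higher in DMSO cells (0.61, SE 0.21; adjusted p = 0.0458), which ended without any 1 of the 4 DMSO or the 2 unstimulated compound 10 libraries or stimulated compound 10 library 1 or 3 (adjusted p = 0.0512 to 0.229). The difference between its stimulation changes was -1.11 (SE 0.28; adjusted p = 0.0921).

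Zfp451, a SUMO ligase, was at 16.9, 22.3 and 18.7 CPM in stimulated compound 10 cells, against 34.4 and 37.7 CPM in stimulated DMSO cells (-0.90, SE 0.17; adjusted p = 0.00305). Zfp148 was at 15.6, 14.9 and 14.2 CPM, against 22.4 and 25.1 CPM in stimulated DMSO cells (-0.67, SE 0.17; adjusted p = 0.0118). The groups did not overlap, and the Zfp148 call ended without stimulated DMSO library 2 (adjusted p = 0.0859). The KRAB gene Zfp868 changed by -0.64 (SE 0.19; adjusted p = 0.0265), which ended without that library (adjusted p = 0.194) or any 1 stimulated compound 10 library (adjusted p = 0.0510 to 0.0558). The other lower members were Zfp58 (-1.06), whose call ended without stimulated DMSO library 2 (adjusted p = 0.0834), and Zfp951 (-0.68), whose call ended without any 1 library other than stimulated compound 10 library 2 (adjusted p = 0.0625 to 0.134).

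With limma on log2(TPM + 1), the compound calls in stimulated cells ended for Zfp51, Zfp52, Zfp68, Zfp148, Zfp362, Zfp426, Zfp451, Zfp639, Zfp809, Zfp868 and Zfp951 (adjusted p = 0.0545 to 0.337), and those in unstimulated cells for Zfp52 (adjusted p = 0.101) and Zfp97 (adjusted p = 0.142).

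By domain, compound 10 in stimulated cells raised 4 (11.1%) and lowered 6 (16.7%) of the 36 KRAB members, and raised 4 (6.35%) and lowered 5 (7.94%) of the 63 others. Beside these counts and those of the lists below stand 11.7% higher and 11.4% lower over all genes, and 16.4% and 19.2% over the protein-coding genes at the same minimum. Of the 190 tested Zfp genes under the minimum, 9 were higher and 28 lower, with a median log2 fold change of -0.26. Of the 25 corepressor genes 4 were higher and 8 lower (median -0.16), including Trim28, which fell by 1.09 (SE 0.23; adjusted p = 0.00551), and Mta1, which rose by 1.93 (SE 0.30; adjusted p = 0.000836). Of the 27 decay genes 2 were higher and 5 lower (median -0.17), led by the deadenylase subunits Cnot2 (-1.14, SE 0.15) and Cnot1 (-0.94, SE 0.19). Of the 32 short-lived and 25 long-lived transcripts, 10 were higher and 2 lower (median 0.26) and 3 higher and 4 lower (median -0.08).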

How the data were processed

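RNA of 9 libraries was made with the Clontech SMART-seq chemistry after purification on Qiagen columns, per the labels' protocols. The authors deposited, per the file headers, an estimated count and a TPM value (transcript abundance scaled for length and library) for each of 109617 transcripts in every library. Reads were trimmed with cutadapt and assigned with kallisto against mm10, per the submitters' processing notes; versions and annotation: not given in the sources used here. Of these transcripts, 108214 matched GENCODE M21 when the version number was ignored and 63964 with it, and 0.542% to 0.829% of estimated counts had no match.

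Estimated counts were summed per gene and rounded to whole numbers, TPM was summed per gene, and 14011 of 45321 genes passed edgeR's filter on low counts. All 4 groups entered a single fit of edgeR 4.0.16 (R 4.3.3, TMM scaling, robust quasi-likelihood), since groups of 2 and 3 libraries give little spread of their own, with p-values adjusted by Benjamini and Hochberg over all genes and called under 0.05. CPM uses TMM-scaled library sizes, and each SE was taken as the size of the log2 fold change over the root of its F value. The script was tested on simulated data.

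Zfp genes were named for the largest changes in 3 comparisons (the 8 furthest up and down, past the threshold, at a mean log2 CPM of at least 3, without overlap), the 8 highest TPM, the 5 smallest interaction p, textbook roles, and the 3 totals on each side of the minimum. Zfp53, Zfp58, Zfp444, Zfp524, Zfp654, Zfp951 and the neighbours on chromosome 17 were added after their values were seen. The members and lists were chosen with earlier results of these data known. The finger classes, motifs, promoters, Zfp207 forms and plotted genes were chosen after the values were seen. KRAB and finger patterns were run on translated GENCODE coding sequences in place of RefSeq proteins, which were not used here. Promoters (300 bases around the start) come from RefSeq on GRCm38.p6. Alternatives were RLE scaling, no filter, DESeq2 1.42.0, limma 3.58.1 on log2(TPM + 1), protein-coding transcripts only, the replicate number as a block, and each library left out. TPM centred on the median gene, leaving out the rRNA-richest DMSO library of each state, and keeping the 83 members at the minimum per library without their highest group, were added after seeing the data.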

Additional observations from a re-analysis of the deposited data

Results flagged for a closer look

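The change of Zfp948 with stimulation differed between compound 10 and DMSO by 2.11 on the log2 scale (SE 0.34; edgeR quasi-likelihood interaction test, adjusted p = 0.0144), which passed the threshold, but not under 7 of 17 alternatives (adjusted p up to 0.0823), among them the replicate block (2.00, adjusted p = 0.0537). The gene reached the minimum total only through the stimulated compound 10 libraries. All 3 stimulated compound 10 libraries lay above both stimulated DMSO libraries, while the unstimulated libraries overlapped.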

How the results depend on the processing

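Of 78 calls of named members, 30 held under all 17 alternatives, 48 were lost under at least 1, and 0 turned direction; the cause of the losses was not tested. Percentages in brackets are of all genes in the same fit. With limma on log2(TPM + 1), compound 10 raised 3 (3.98%) and lowered 5 (4.55%) members in stimulated cells and lowered 1 (0.635%) in unstimulated cells. Stimulation then raised 3 (4.25%) under compound 10 and 4 (6.98%) in DMSO cells, and the interaction had 0 higher (0.0214%). Centring the TPM on the median gene gave 15 lower members (7.69%) with stimulation in DMSO cells. Without a filter, which kept 27206 genes, compound 10 raised 2 (3.57%) and lowered 5 (2.20%) members in unstimulated cells. Stimulation under compound 10 then raised 11 (6.45%), and the interaction had 2 higher (0.805%). DESeq2, on the same 27206 genes, gave 6 lower members (1.92%) with compound 10 in unstimulated cells. It gave 2 higher (0.606%) and 1 lower (0.974%) in the interaction. Protein-coding transcripts alone gave 7 lower (4.31%) with compound 10 in unstimulated cells. Without the rRNA-richest DMSO library of each state, 4 members were lower with compound 10 in stimulated cells, 5 were higher and 12 lower with stimulation in DMSO cells, and 0 were higher in the interaction. Among the 83 members at the minimum per library without their highest group, 0 were higher with compound 10 in unstimulated cells and 0 in the interaction. With 1 library left out, stimulation under compound 10 raised 7 to 12 members, and in DMSO cells it raised 6 to 14 and lowered 18 to 33. Compound 10 then lowered 5 to 11 in stimulated cells, raised 0 to 1 and lowered 1 to 9 in unstimulated cells, and the interaction had 0 to 2 higher.

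Same-numbered libraries did not deviate together throughout, so the numbers were not taken as pairs. Between unstimulated and stimulated cells their deviations correlated at 0.33 in DMSO, and at 0.23 (number 1) and 0.18 (number 2) under compound 10. Between compound 10 and DMSO the correlation was -0.10 in unstimulated cells, and 0.18 (number 1) and 0.09 (number 2) in stimulated cells. Whether the libraries were paired cannot be settled from these values. With the replicate number as a block, compound 10 raised 2 members in unstimulated cells and the interaction had 0 higher, Zfp948 being at 2.00 (adjusted p = 0.0537); stimulation in DMSO cells raised 10 and lowered 30. Over the settings that kept every member, the members' median minus that of all genes stayed between -0.43 and -0.32 for stimulation under compound 10. It stayed between -0.40 and -0.30 in DMSO cells. For the 83 members at the minimum per library without their highest group, the gap was smaller than these ranges. Their median log2 fold change was -0.28 under compound 10 (all genes 0.00) and -0.31 in DMSO cells (all genes -0.05). On the TPM scale the median gene itself moved by -0.21 under compound 10 and -0.17 in DMSO cells. Groups of 2 and 3 libraries limit the precision of every call.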

Other observations

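After Zfp948, the members with the smallest interaction p were Zfp809, Zfp719, Zfp386 and Zfp429, and none of these 4 passed the threshold in edgeR's quasi-likelihood test. Zfp719 was at 11.5, 6.45 and 10.7 CPM in stimulated compound 10 cells and 7.31 and 5.70 CPM in stimulated DMSO cells. It was at 4.87 and 5.92 CPM in unstimulated compound 10 cells and 10.8 and 11.3 CPM in unstimulated DMSO cells. Its changes with stimulation were 0.82 (SE 0.28; adjusted p = 0.0566) under compound 10 and -0.76 (SE 0.30; adjusted p = 0.0778) in DMSO cells, a difference of 1.58 (SE 0.41; adjusted p = 0.0949). The adjusted p of that difference was 0.0297 without a filter on low counts, 0.0383 with DESeq2 and 0.0251 without stimulated compound 10 library 2. Zfp429 differed by 1.05 (SE 0.31; adjusted p = 0.132).

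Transcripts annotated as retained introns took 2.40% to 4.01% of the members' counts, and 1.93% to 2.84% of those of all protein-coding genes, and in each of the 9 libraries the share was higher for the members.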
